A study of Homo sapiens with 9 samples.

Results

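The transcripts described here come from the human mitochondrial genome: all genes whose chromosome in the deposited count files is MT, which are 35 of 57500 genes. They are 13 mRNA genes and 22 tRNA genes, and 26 of the 35 are transcribed from the heavy strand and 9 from the light strand. The reference annotation used here lists 37 genes on this genome, and the remaining 2, the rRNA genes MT-RNR1 and MT-RNR2, were not analysed here. The cells were HEK293T, a widely used human line derived from embryonic kidney. They received DMSO (the vehicle), 10 µM HBC530 or 10 µM MsOc3HBC for 5 h, with 3 biological replicates per treatment and 9 libraries in all. HBC530 binds the Pepper RNA aptamer without a covalent bond, and MsOc3HBC is a derivative made to react with that aptamer, so the comparisons ask whether either ligand left a mark on the cells' own transcripts. The methods of this experiment name no transfection with an aptamer construct. All cells are of 1 line, so the replicates do not cover differences between donors.

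Mitochondria keep a small circular genome that encodes core subunits of the respiratory chain together with the rRNAs and tRNAs needed to translate them. The nuclear-encoded polymerase POLRMT copies each strand into a long transcript, and enzymes that cut at the ends of the tRNAs release the individual RNAs. Most of the mRNAs then receive a short poly(A) tail, which for several of them completes the stop codon, whereas human MT-ND6, the only mRNA from the light strand, is known as the one without a regular tail. Mature tRNAs end in CCA and carry no poly(A) tail. Poly(A)-selected RNA therefore shows the polyadenylated part of mitochondrial RNA, and the levels below are those of this fraction and not of total RNA.

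The ends of the mRNA genes show which of them lack a full stop codon before a tail is added. They are given because the libraries were made from RNA selected by such tails. These are annotated gene ends, and where a tail begins was not tested. Each line gives the last 21 bases of a gene in its own sense, 5′ to 3′, from chrM of hg38 (16569 bases), and the capitals mark the letters after the last full codon, or the last 3 letters where the gene ends on a full stop codon. Of the 13 mRNA genes, 7 end on 3 complete letters and 6 end on T or TA.
MT-ND1, chrM:4242-4262, plus strand: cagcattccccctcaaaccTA
MT-ND2, chrM:5491-5511, plus strand: cttttatactaataatcttaT
MT-CO3, chrM:9970-9990, plus strand: ccatctattgatgagggtctT
MT-ND3, chrM:10384-10404, plus strand: aaggattagactgaaccgaaT
MT-CYB, chrM:15867-15887, plus strand: acaaaatactcaaatgggccT
MT-CO1, chrM:7425-7445, plus strand: cccgtatacataaaatctAGA
MT-ND6, chrM:14149-14169, minus strand: gagattgctcgggggaatAGG

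A pair of gene overlaps matters for the counts. MT-ATP8 and MT-ATP6, both subunits of ATP synthase, share 46 bases of 1 transcript, and MT-ND4L and MT-ND4, both subunits of complex I, share 7. In the lines below the capitals are the bases that belong to both genes, with 10 bases on either side.
MT-ATP8 and MT-ATP6, chrM:8517-8582, plus strand: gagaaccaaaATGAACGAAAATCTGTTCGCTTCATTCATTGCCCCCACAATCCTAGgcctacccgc
MT-ND4L and MT-ND4, chrM:10750-10776, plus strand: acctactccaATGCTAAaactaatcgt
The authors counted unique gene hits, so a read lying over both genes of such a pair may be counted for neither, and the levels of MT-ATP8 and MT-ND4L carry that uncertainty.

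The library totals ranged from 28056929 to 62205366 counts. Counts on the mitochondrial genome numbered 657691 to 1737921 per library, so that counting error is small for every mRNA, whereas the least abundant tRNA genes had under 10 counts. Replicate 3 of both ligands, the shallowest libraries, stood apart from the others on the first principal component of all genes (36.9 with HBC530 and 48.8 with MsOc3HBC, against -20.3 to -4.28 in the other 7 libraries). Markers known from HEK293T were present, with NEFL at 72.1 to 92.6, NEFM at 101 to 171, INA at 16.2 to 25.1 and PAX2 at 2.00 to 3.88 CPM (a gene's counts divided by the library's counts on all genes and scaled to 1000000). Of the markers of other cell types, PTPRC, ALB and PECAM1 did not exceed 0.113 CPM, and COL1A1 lay between 18.5 and 35.5 CPM. Nuclear pseudogenes copied from mitochondrial DNA drew counts equal to 0.913 to 1.18% of the mitochondrial counts, most of them on MTATP6P1, whose counts were 4.90 to 6.44% of those of MT-ATP6.

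The mitochondrial genome held a similar share of all counts under the 3 treatments. With DMSO the share was 1.90, 2.39 and 2.79% in replicates 1 to 3 (2.36% ± 0.446, SD, n = 3). With HBC530 it was 2.53, 2.04 and 2.89% (2.49% ± 0.426, SD, n = 3). With MsOc3HBC it was 3.50, 2.11 and 2.34% (2.65% ± 0.747, SD, n = 3). The highest share belonged to replicate 1 of MsOc3HBC, the other 8 libraries lay between 1.90 and 2.89%, and all 3 groups overlapped. Without that library the mean with MsOc3HBC was 0.135 percentage points below that with DMSO (a difference of -0.135), and with it 0.291 points above. Without replicate 3 of HBC530 the difference from DMSO changed from 0.129 to -0.0721 points. Nearly all of the share came from the mRNAs, since tRNA genes made up 0.566 to 0.746% of the mitochondrial counts. In bulk RNA, fewer cells with mitochondrial transcripts and fewer such transcripts per cell cannot be told apart.

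Genes of the light strand took 4.67 to 6.04% of the mitochondrial counts, and that part was higher in each MsOc3HBC library than in each DMSO library. It was 5.03, 5.15 and 5.19% with DMSO (5.12% ± 0.0816, SD, n = 3). The values with HBC530 were 4.67, 5.09 and 5.46% (5.07% ± 0.398, SD, n = 3). Those with MsOc3HBC were 6.04, 5.40 and 5.52% (5.65% ± 0.340, SD, n = 3). MsOc3HBC and DMSO therefore did not overlap, with a difference of 0.528 percentage points between means, whereas the lowest MsOc3HBC library (5.40%) lay below the highest HBC530 library (5.46%). Without replicate 1 of MsOc3HBC the difference from DMSO was 0.335 points. In CPM, which is a different measure, 18.4% of the genes tested did not overlap between MsOc3HBC and DMSO. The comparison of the light-strand part is a description of 9 shares, for which no test was run. It rests on MT-ND6, a subunit of complex I, which held 88.4 to 93.1% of the light-strand counts.

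Light-strand values need a caution on strand. MT-ND6 (chrM:14149-14673) lies on the minus strand, directly after MT-ND5 (chrM:12337-14148) of the plus strand, where the long heavy-strand transcript also runs. Of 742 nuclear genes whose exons lie wholly under exons of the opposite strand, 740 had 0 counts in all 9 libraries, against 40.6% of 45267 genes with no such exons. Reads over such places were thus left out as belonging to both genes, which happens when reads are counted without regard to strand. Reads from MT-ND6 and from its antisense partner, the heavy-strand RNA between MT-ND5 and MT-CYB, therefore cannot be told apart here. The same holds for the 8 light-strand tRNA genes.

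MT-ND6 and MT-ND5 are neighbours, and the ratio of their counts carries the strand limit above. Counts on MT-ND6 can include heavy-strand RNA, so the ratio may not compare separate mRNAs. The ratio of MT-ND6 to MT-ND5 counts was 0.809, 0.801 and 0.849 with DMSO. It was 0.875, 0.923 and 1.40 with HBC530, and 0.889, 0.885 and 1.29 with MsOc3HBC. All 6 ligand libraries lay above all 3 DMSO libraries, and the highest values were those of replicate 3 of both ligands. The mean ratio exceeded that of DMSO by 0.247 with HBC530 and 0.200 with MsOc3HBC. Without replicate 3 of the ligand these differences were 0.0790 and 0.0676. This ratio was chosen after its values were seen and has no test. MT-ND6 stands out in sequence as well, since G makes up 35.6% of its sense strand, against 6.28% (MT-ATP8) to 16.2% (MT-CO1) in the heavy-strand mRNAs.

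The levels of the mRNA genes spanned more than a factor of 10, from MT-ATP8 to MT-ND4L, and kept much of their order in all libraries. Both of these genes overlap a neighbour, which leaves their levels, and so the span, uncertain. Levels between genes are compared as CPM per kilobase of gene (CPM per kb), here as means with DMSO (SD, n = 3). Among the ATP synthase genes, MT-ATP8 had 6597 ± 973 and MT-ATP6 5653 ± 944 CPM per kb, the highest of the 13. The catalytic core genes of cytochrome c oxidase (complex IV) came next, with MT-CO3 at 2965 ± 583, MT-CO2 at 2821 ± 503 and MT-CO1 at 2590.2 ± 498 CPM per kb. MT-CYB, the cytochrome b gene of complex III, had 1369.5 ± 321 CPM per kb.

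The complex I genes were spread over the whole range. MT-ND3 had 2929.9 ± 383 CPM per kb, a level among those of complex IV. MT-ND6 had 2089.5 ± 464 and MT-ND4 1928 ± 417 CPM per kb, and MT-ND2 (1131 ± 231) and MT-ND1 (1049 ± 237) had lower levels. The value of MT-ND6 can include heavy-strand RNA, since strand was not used, and is uncertain as a level of its mRNA. MT-ND5 (737 ± 147) and MT-ND4L (498 ± 17.6) were the lowest. Between neighbours in this order, the DMSO ranges overlapped except for MT-ATP6 above MT-CO3 and MT-ND5 above MT-ND4L. Within libraries, MT-CO3 was above MT-ND3 in 1 of 3 DMSO libraries and MT-ND3 above MT-CO2 in 2. The other neighbours kept this order in all 3. The genes from rank 9 to rank 13 (MT-CYB, MT-ND2, MT-ND1, MT-ND5, MT-ND4L) held the same rank in all 9 libraries. At the top, MT-ATP6 passed MT-ATP8 only in replicate 3 of HBC530 (7158 against 6613 CPM per kb) and replicate 3 of MsOc3HBC (5862 against 5297).

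**Figure D1:**
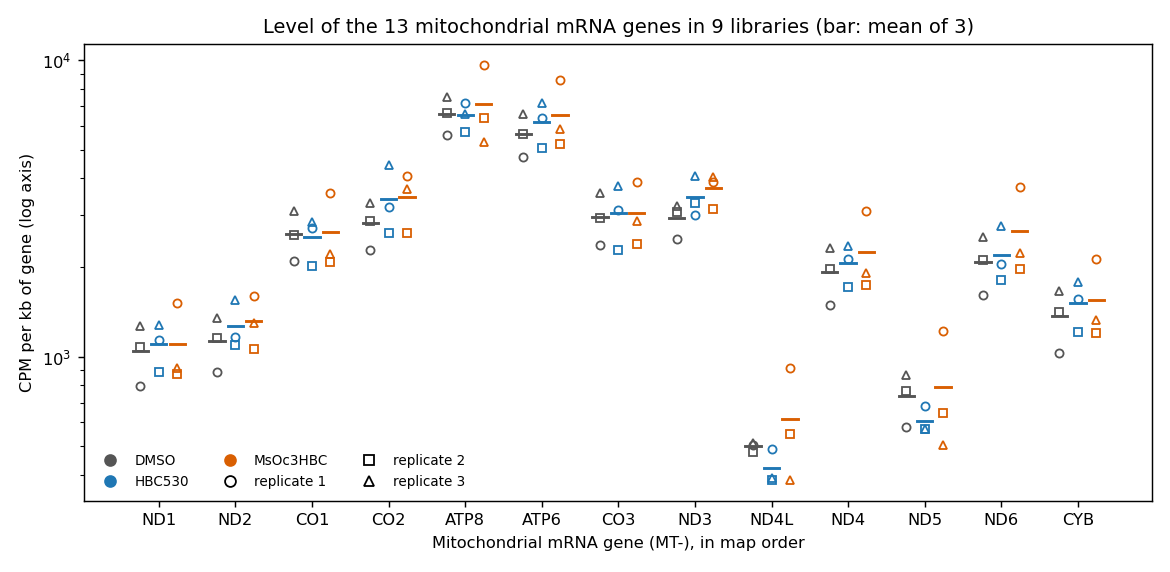
Level of each of the 13 mitochondrial mRNA genes in CPM per kb (log axis), in map order, with 1 point per library and a bar for the mean of 3 libraries of a treatment. MT-ATP8 and MT-ATP6 lie highest and MT-ND4L lowest, and the treatments overlap for each gene. The levels of MT-ATP8 and MT-ND4L are uncertain because these genes overlap a neighbour, and that of MT-ND6 because strand was not used.

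The tRNA genes had low counts and a strand pattern. Mean counts over the 9 libraries ran from 4.11 (MT-TD, for aspartate) to 1896 (MT-TY, for tyrosine). The highest 3 were MT-TY, MT-TN (asparagine) and MT-TC (cysteine), all on the light strand within 1 cluster of tRNA genes. The median of the mean counts was 473 for the 8 light-strand genes and 85.6 for the 14 heavy-strand genes, of which MT-TL1 (leucine) was highest at 697. The light strand held 65.9 to 79.5% of all tRNA counts. In these libraries such counts can be fragments of uncut precursors as well as tRNAs, and with strand unused they can come from either strand. MT-TC and MT-TY also share 1 base. MT-TN is shown whole because it is among the members called below when the ligands are compared with an assumed pairing.
MT-TN, chrM:5657-5729, minus strand: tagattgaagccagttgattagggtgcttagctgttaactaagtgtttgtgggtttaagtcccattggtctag

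The make-up of the mRNA counts, each gene's percent of the 13 genes' counts, removes differences in the total. MT-CO1 made up 17.2, 16.7 and 17.2% with DMSO, 16.6, 15.4 and 15.3% with HBC530 and 15.8, 15.4 and 14.7% with MsOc3HBC. Both ligand groups lay wholly below DMSO in this share. A gene's share can fall when those of other genes rise. The fitted log2 fold change of MT-CO1 against DMSO was -0.00361 (SE 0.166) with HBC530 and 0.0178 (SE 0.198) with MsOc3HBC. The part of MT-CO2 was 8.32, 8.27 and 8.13% with DMSO, 8.66, 8.79 and 10.5% with HBC530 and 7.99, 8.54 and 10.8% with MsOc3HBC. HBC530 lay wholly above DMSO, and MsOc3HBC overlapped it. MT-ND5 made up 5.54, 5.85 and 5.65% with DMSO, 4.90, 5.08 and 3.59% with HBC530 and 6.36, 5.59 and 3.91% with MsOc3HBC. HBC530 lay wholly below DMSO, and replicate 3 of each ligand was the lowest of its group.

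MT-ND6 made up 4.48, 4.69 and 4.80% with DMSO, 4.28, 4.69 and 5.04% with HBC530 and 5.66, 4.95 and 5.03% with MsOc3HBC. The MsOc3HBC libraries lay wholly above the DMSO libraries, and HBC530 overlapped both. MT-CO3 was lower with MsOc3HBC (8.76 to 9.67%) than with DMSO (9.74 to 10.04%), and MT-ND1 was lower with MsOc3HBC (3.77 to 4.17%) than with HBC530 (4.18 to 4.31%), in every library. For comparison, counts divided by the same mRNA total did not overlap for 2.79% of all genes tested between HBC530 and DMSO, 3.21% between MsOc3HBC and DMSO and 2.25% between MsOc3HBC and HBC530. Nuclear genes carry the spread of the mitochondrial total in that quotient, so these percentages are not like for like, and none of the shares was tested. Replicate 3 of both ligands, the libraries that stood apart, also had the lowest shares of MT-ATP8 (4.76 and 4.71% against 5.61 to 6.32% in the other 7) and of MT-ND4L (0.403 and 0.490% against 0.548 to 0.792%). The part of those libraries in the composition was not tested.

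**Figure D2:**
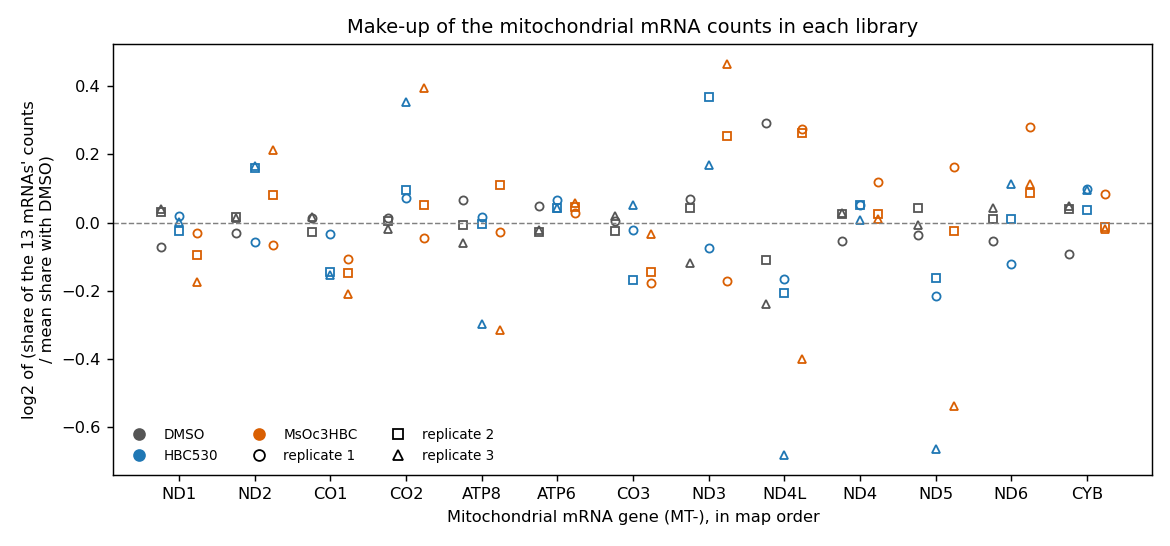
Share of each gene in the counts of the 13 mitochondrial mRNA genes, as log2 of its ratio to the mean share with DMSO, with 1 point per library. The share of MT-CO1 lies lower with both ligands, and that of MT-ND6 higher with MsOc3HBC. The triangles of both ligands (replicate 3) lie apart for MT-CO2, MT-ATP8, MT-ND4L and MT-ND5.

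HBC530 against DMSO gave no mitochondrial gene past the threshold. Of 33 members that passed the filter on low counts, 0 had an adjusted p under 0.05 in edgeR's quasi-likelihood test, where 0.017% of all 17684 genes were called, and DESeq2 called 0 of 35. The limit set in the study's methods (absolute log2 fold change above 1 at an adjusted p below 0.5) was passed by 0 members and 0.0226% of all genes. At an unadjusted p under 0.05 there was 1 member, against 5.07% of all genes. The CPM of the groups did not overlap for 1 of the 35 members, against 13.2% of the genes tested.

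That member was MT-TW, the tryptophan tRNA, at 1.92, 1.71 and 2.12 CPM with DMSO and 1.504, 1.519 and 1.373 CPM with HBC530. All 3 HBC530 libraries lay below all 3 DMSO libraries, on 48 to 132 counts each. Its log2 fold change was -0.36 (SE 0.149, 95% interval -0.69 to -0.03, adjusted p = 0.751). MT-TF, for phenylalanine, had 2.75, 3.45 and 3.70 CPM with DMSO and 2.91, 2.06 and 2.69 CPM with HBC530, with overlapping groups. Its log2 fold change was -0.36 (SE 0.172, interval -0.74 to 0.02, adjusted p = 0.751), and -0.21 without replicate 2 of HBC530.

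MT-ND4L had 149.6, 142 and 152 CPM with DMSO and 145, 114 and 116 CPM with HBC530. The highest HBC530 library lay within the DMSO range and the other two below it. Its log2 fold change was -0.22 (SE 0.100, interval -0.44 to 0.00234, adjusted p = 0.751), and -0.15 without replicate 2 of HBC530. MT-ND6 had 847, 1112 and 1333 CPM with DMSO and 1079, 952 and 1448 CPM with HBC530, overlapping widely. The log2 fold change of MT-ND6 was 0.11 (SE 0.194, interval -0.32 to 0.54, adjusted p = 0.869).

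Over the 13 mRNA genes the median log2 fold change was 0.11, against 0.00464 over all genes tested, and 10 of 13 were above 0. This direction rested on single libraries, since the median was -0.05 without replicate 1 of DMSO and -0.03 without replicate 3 of HBC530. In the fit without replicate 3 of HBC530, 6 of 33 members had an unadjusted p under 0.05, all lower, beside 4.91% of all genes, and 0 were called. The 95% intervals of all 13 mRNA genes lay within -1 and 1 on the log2 scale, as did those of 90.1% of all genes. Within -0.5 and 0.5 lay 3 of 13.

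MsOc3HBC against DMSO likewise had 0 of 33 members called by edgeR, against 0.154% of 17514 genes, and 0 of 35 by DESeq2. None of the 33 passed the limit of the methods, which 0.56% of all genes did. At an unadjusted p under 0.05 there were 2 members, both higher, against 10.9% of all genes. In CPM the groups overlapped for all 35 members, while 18.4% of the genes tested did not overlap.

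The pair with an unadjusted p under 0.05 was MT-TN and MT-ND3. MT-TN had 33.8, 24.1 and 25.4 CPM with DMSO and 42.1, 30.9 and 42.2 CPM with MsOc3HBC. Only the lowest MsOc3HBC library fell inside the DMSO range. Its log2 fold change was 0.47 (SE 0.163, interval 0.12 to 0.83, adjusted p = 0.354), and it was called only when no filter on low counts was used (adjusted p = 0.0247), together with MT-TG, for glycine. Without that filter 0.706% of all genes were called. MT-ND3, a complex I subunit, had 864, 1063 and 1114 CPM with DMSO and 1346, 1089 and 1401 CPM with MsOc3HBC, with the lowest MsOc3HBC library inside the DMSO range. The log2 fold change of MT-ND3 was 0.34 (SE 0.142, interval 0.03 to 0.65, adjusted p = 0.428), and 0.23 without replicate 3 of MsOc3HBC.

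MT-ND6 had 1969.5 CPM in replicate 1 of MsOc3HBC and 1037 and 1172 CPM in replicates 2 and 3, with the last 2 inside the DMSO range of 847 to 1333. Its log2 fold change was 0.34 (SE 0.223, interval -0.15 to 0.83, adjusted p = 0.595), and 0.03 without replicate 1 of MsOc3HBC. MT-TF had 3.31, 2.38 and 2.10 CPM with MsOc3HBC, with replicate 1 inside its DMSO range and the others below. The log2 fold change of MT-TF was -0.35 (SE 0.182, interval -0.75 to 0.05, adjusted p = 0.509), and -0.54 without replicate 1 of MsOc3HBC.

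The median log2 fold change of the mRNA genes was 0.21, against 0.0122 over all genes, and 13 of 13 were above 0. Replicate 1 of MsOc3HBC decided this direction, for without it the median was -0.09 and 4 of 13 were above 0. The number of members with an unadjusted p under 0.05 moved with single libraries as well, to 9 of 33 (all higher) without replicate 2 of MsOc3HBC, where 15.7% of all genes passed, and to 5 of 33 (1 higher, 4 lower) without replicate 1, where 7.94% did. All 13 intervals lay within -1 and 1, as did 88.3% over all genes, and 2 of 13 lay within -0.5 and 0.5. Both comparisons with DMSO share the same 3 DMSO libraries.

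**Figure D3:**
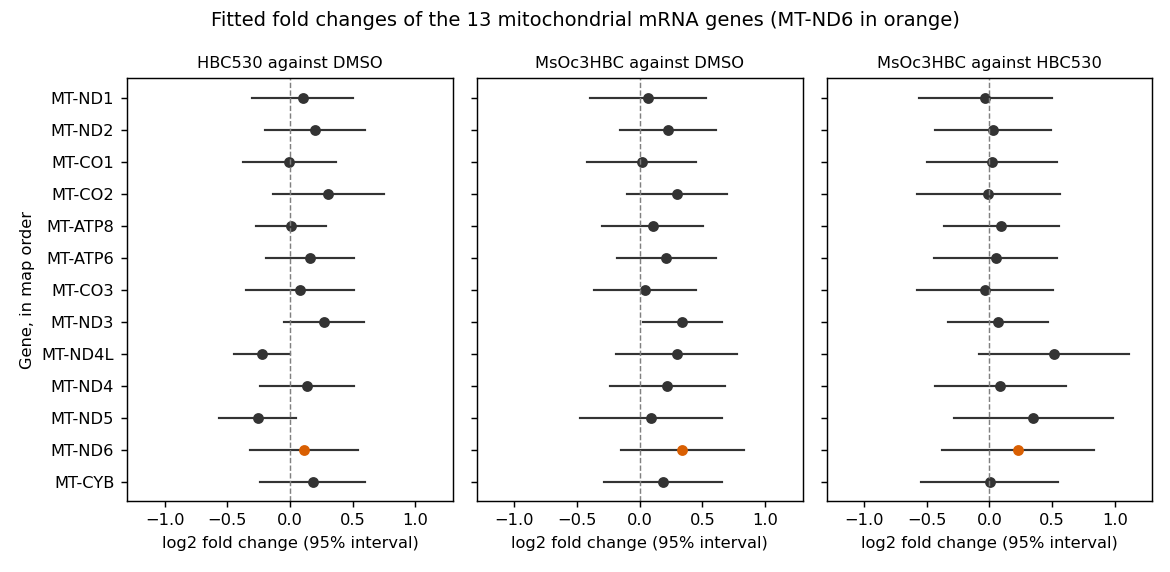
Log2 fold changes of the 13 mitochondrial mRNA genes in the 3 comparisons (points, MT-ND6 in orange) with 95% intervals from edgeR's quasi-likelihood fit, 3 libraries against 3. Nearly all intervals cross 0, and only that of MT-ND4L in MsOc3HBC against HBC530 reaches beyond 1.

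The ligands were compared with each other at the same dose and time, which is 1 pair of related compounds. In the fit without a block, edgeR called 0 of 34 members and 0% of 17397 genes, and DESeq2 called 0 of 35 members. The limit of the methods was passed by 0 members and 0.0115% of genes, and an unadjusted p under 0.05 by 0 members and 7.32% of genes. All 35 members overlapped in CPM, whereas 15% of the genes tested did not. The 95% intervals of 12 of 13 mRNA genes lay within -1 and 1, with MT-ND4L as the exception (interval -0.08 to 1.12), and those of 86.6% of all genes did.

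Ligand libraries with the same replicate number deviated together, with replicate 3 of both ligands standing apart. The labels do not state that these numbers pair libraries, so the blocked p-values rest on an assumed pairing. With the replicate number as a block 2 of 34 members were called, both higher with MsOc3HBC. With this block 11.4% of all genes were called, 4.54% higher and 6.9% lower with MsOc3HBC, so the members' count is near the background share. MT-TN had 22.9, 19.1 and 35.5 CPM in replicates 1 to 3 of HBC530, and 42.1, 30.9 and 42.2 CPM in those of MsOc3HBC. It was higher with MsOc3HBC in each of the 3 pairs, by 0.88, 0.69 and 0.25 on the log2 scale, although the groups overlapped. The blocked log2 fold change was 0.59 (SE 0.0906, interval 0.39 to 0.78, adjusted p = 0.00274), and without the block it was 0.54 (SE 0.258, interval -0.05 to 1.14, adjusted p = 0.688). The value without the block moved with single libraries, from 0.35 without replicate 2 of HBC530 to 0.88 without replicate 3 of HBC530. As a whole gene on the light strand, printed above, MT-TN carries the same strand limit as MT-ND6.

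MT-ND4L had 272, 163 and 114 CPM with MsOc3HBC, next to 145, 114 and 116 CPM with HBC530. It was higher with MsOc3HBC in pairs 1 and 2 and level in pair 3, where the log2 ratio was -0.02. The blocked log2 fold change of MT-ND4L was 0.45 (SE 0.114, interval 0.21 to 0.70, adjusted p = 0.0225), and without the block 0.52 (SE 0.261, interval -0.08 to 1.12, adjusted p = 0.693). Replicate 1 of MsOc3HBC carried most of the latter value, which was 0.14 without it. No unblocked fit that left out a single library called any member. MT-ND4, on the same transcript, had a blocked log2 fold change of 0.06 (SE 0.103, interval -0.16 to 0.28, adjusted p = 0.771). Without replicate 3 of both ligands, the libraries that stood apart, MT-TN (0.76, adjusted p = 0.00143) and MT-ND4L (0.71, adjusted p = 0.0107) were again the 2 of 34 members called, with no block. That fit called 9.16% of all genes, so the members' share is not above the background.

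**Figure D4:**
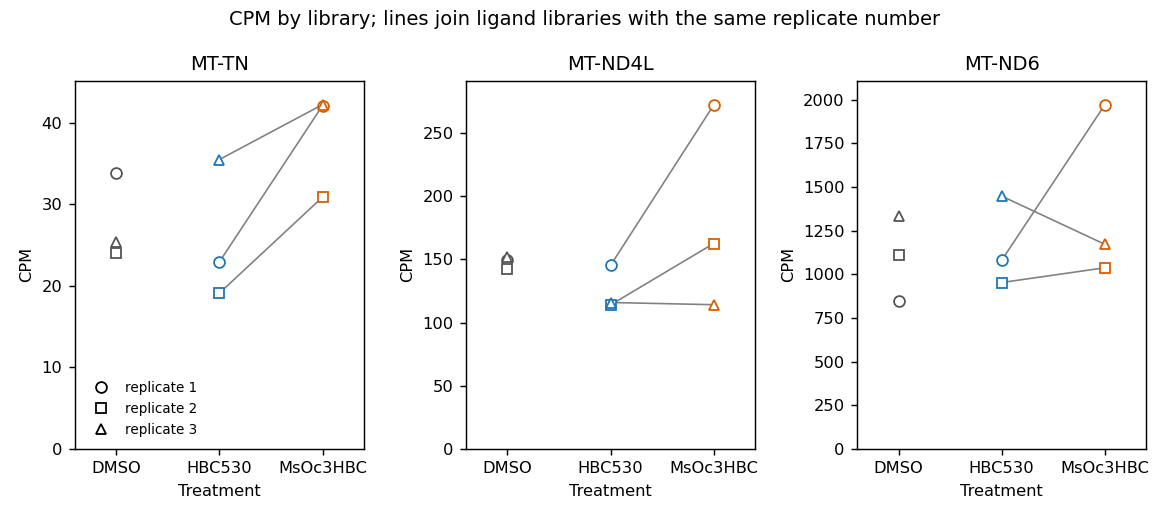
CPM of MT-TN, MT-ND4L and MT-ND6 in each library, with lines joining HBC530 and MsOc3HBC libraries of the same replicate number. MT-TN is higher with MsOc3HBC in 3 of 3 pairs, while MT-ND4L is level and MT-ND6 lower in the pair of replicate 3.

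MT-ND6 differed less clearly between the ligands. It was higher with MsOc3HBC in 2 of 3 pairs, by 0.87 and 0.12 on the log2 scale, and lower in the third, at -0.31. Its log2 fold change was 0.23 (SE 0.263, interval -0.38 to 0.83, adjusted p = 0.883), and -0.08 without replicate 1 of MsOc3HBC. MT-TM, the methionine tRNA, had 0.771, 0.541 and 0.944 CPM with HBC530 and 0.532, 0.624 and 0.428 CPM with MsOc3HBC, on 12 to 40 counts, and the groups overlapped. The log2 fold change of MT-TM was -0.48 (SE 0.286, interval -1.14 to 0.17, adjusted p = 0.742), and -0.27 without replicate 3 of HBC530. The median over the 13 mRNA genes was 0.05, against 0.0171 over all genes. It was -0.16 without replicate 1 of MsOc3HBC and -0.09 without replicate 2 of HBC530. In the other direction it was 0.23 without replicate 3 of HBC530 and 0.18 without replicate 2 of MsOc3HBC. Without replicate 3 of both ligands it was 0.24.

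The nuclear genes that serve the mitochondrial genome were followed as a list of 50 in 4 roles: transcription, replication and packaging, RNA processing and turnover, and modification of rRNA and tRNA. All 50 were tested, and edgeR without a block called 0 in each of the 3 comparisons, as did DESeq2. At an unadjusted p under 0.05 there were 0 with HBC530 and 1 with MsOc3HBC against DMSO, and 4 between the ligands, beside 5.07, 10.9 and 7.32% of all genes. Without replicate 3 of MsOc3HBC there were 10 (all lower) against DMSO and 8 (1 higher, 7 lower) between the ligands, where 14.5 and 10.8% of all genes passed. The medians of the list were 0.0167, -0.03 and -0.02 on the log2 scale in these comparisons.

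Against DMSO the smallest p-values with HBC530 were those of FASTKD3, an RNA-binding protein of the mitochondrial matrix, TRNT1, which adds CCA to tRNAs, and LRPPRC, which stabilises mitochondrial mRNAs. Their log2 fold changes were -0.20, -0.16 and -0.17 (SE 0.0981, 0.0911 and 0.0997, adjusted p = 0.751 for each), and that of LRPPRC was -0.07 without replicate 3 of HBC530. With MsOc3HBC they were those of ELAC2, which trims the 3′ ends of tRNA precursors, MTERF2, of the termination factor family, and the transcription initiation factor TFB2M. The log2 fold changes were -0.26, 0.19 and -0.21 (SE 0.0948, 0.0965 and 0.111, adjusted p = 0.371, 0.501 and 0.508), and that of TFB2M was -0.33 without replicate 3 of MsOc3HBC.

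Between the ligands, 8 of the 50 were called with the replicate block, 1 higher and 7 lower with MsOc3HBC, where 4.54 and 6.9% of all genes were. The count of lower genes is above that background share. The list was chosen with earlier results of these data known, so this count cannot stand as a result about these genes. No test of the list was run, and without the block 0 of the 50 were called. ELAC2 had 229, 226 and 207 CPM with HBC530 and 185, 196 and 174 CPM with MsOc3HBC, lower in every pair and without overlap. Its blocked log2 fold change was -0.28 (SE 0.0460, adjusted p = 0.00373). TRNT1, the only one higher, had 16.9, 16.1 and 15.6 CPM with HBC530 and 19.5, 21.8 and 19.4 CPM with MsOc3HBC, also without overlap. The blocked log2 fold change of TRNT1 was 0.30 (SE 0.0682, adjusted p = 0.0147), and 9.28% of its exonic bases lie under exons of another gene.

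The other 6 fell with MsOc3HBC by less than 0.3 on the log2 scale. DHX30, an RNA helicase of mitochondrial ribosome assembly, had a blocked log2 fold change of -0.26 (adjusted p = 0.00457), and POLRMT one of -0.26 (adjusted p = 0.00614). Those of ERAL1, TBRG4, DDX28 and TRMU lay between -0.21 and -0.18 (adjusted p = 0.0262 to 0.0399), with 22.5% of the exonic bases of DDX28 and 12.2% of those of ERAL1 under exons of another gene. Without the block the adjusted p of ELAC2, TRNT1 and DHX30 was 0.643 for each.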

How the data were processed

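Each of the 9 libraries came from a separate biological replicate, with selection of poly(A) RNA and sequencing in read pairs. The authors used Trimmomatic 0.36 for trimming and STAR 2.5.2b for alignment to GRCh38, and then counted unique gene hits with featureCounts (Subread 1.5.2). The deposited values are raw counts per gene, and the authors' 2 tables of their own comparisons (fold changes, p-values and DESeq2-normalized counts) were not used. The annotation release and the strand setting of the counting are not given in the sources used here. Positions and strands of the 35 genes were the same as in GENCODE v44, from which the sequences' positions on hg38 were taken.

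CPM used the total count on all 57500 genes. Counts were tested in R 4.3.3 with edgeR 4.0.16 (filterByExpr, TMM factors, quasi-likelihood F test, Benjamini-Hochberg adjustment over all genes of a comparison), 3 libraries against 3. The fits were tested on simulated data. Totals of 28056929 to 62205366 counts set the precision of each library. Replicates were grouped by the sample labels. Deviations of same-numbered libraries from their group means correlated at 0.167, 0.368 and 0.433 between the ligands, each above 0.1. The report therefore prints blocked results for the ligands. Replicate 3 of both ligands stood apart together, and deviations from a mean of 3 libraries depend on each other. The 3 correlations are thus not independent signs of pairing, and the sample labels state only a replicate number. The correlations were 0.0871, 0.0127 and 0.172 between HBC530 and DMSO, and -0.111, 0.00973 and 0.0410 between MsOc3HBC and DMSO, where the numbers were not taken to pair libraries. Fold changes are given for MT-ND6 and, in each comparison, for every member called, or the 3 of smallest p where none was, and likewise for the 50 nuclear genes (at most 10). MT-ND4, MT-TG, the fold changes of MT-CO1 and the ratio of MT-ND6 to MT-ND5 were named after their values were seen. Alternatives were DESeq2 1.42.0, limma-voom (limma 3.58.1), 4 other scalings, other filters, all 9 libraries in 1 fit, the replicate block and fits without single libraries or without replicate 3 of both ligands. The members and gene lists were chosen with earlier results of these data known.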

Additional observations from a re-analysis of the deposited data

How the results depend on the processing

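Calls of mitochondrial genes changed in few settings. For MsOc3HBC against DMSO, 2 members (MT-TN and MT-TG) were called with no filter on low counts, where 0.706% of all genes were, and 1 passed the limit of the methods with all 9 libraries in 1 fit, as did 0.682% of all genes. Leaving out each library in turn gave 0 to 1 members at that limit, with 1 without replicate 2 or without replicate 3 of MsOc3HBC (1.39 and 0.92% of all genes). Between the ligands, the replicate block, which pairs libraries by number, gave 2 members and 8 of the 50 nuclear genes at an adjusted p under 0.05. Without replicate 3 of both ligands the counts were again 2 and 8, with 2 members at the limit of the methods (1.08% of all genes) and 1635 genes called in all (9.16%). The cause of these changes was not tested. The replicate block gave 0 members called in both comparisons with DMSO, where the adjusted p of MT-TN with MsOc3HBC was 0.0512, while it called 16 genes in place of 3 with HBC530, and 149 in place of 27 with MsOc3HBC.

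The log2 fold change of MT-ND6 reversed when single libraries were left out. With HBC530 against DMSO it ranged from -0.11 to 0.28 (-0.05 without replicate 1 of DMSO, -0.11 without replicate 3 of HBC530), and between the ligands from -0.077 (without replicate 1 of MsOc3HBC) to 0.46. Scaling on the counts of the 13 mitochondrial mRNAs moved the median of all genes from 0.0122 to -0.13 for MsOc3HBC against DMSO. Relative to those counts, 8 of 13 mRNA genes were above 0 in that comparison, 7 with HBC530 against DMSO and 6 between the ligands. Of the other values, 243 answer a comparison and 348 are of single genes or of the ratio of MT-ND6 to MT-ND5. These kept their direction and side of the threshold or moved by less than the spread between replicates. Those that answer a comparison include medians of the mRNA genes and differences in share that changed sign within that spread, as given above. The least abundant tRNA genes, with under 10 counts, allow no statement on a change.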
